A study of Mus musculus with 6 samples.

Results

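Interferon-stimulated genes are the genes that cells switch on when an interferon binds to them, and 43 of them were followed here among the 49315 genes counted in mouse lung. They were chosen as a named list of known interferon targets and found by gene symbol, 1 row each, and the rule itself uses no measured value. The list was read in 3 sets. A type I set held 11 genes (Ifit1, Ifit2, Ifit3, Isg15, Mx1, Mx2, Oas1a, Oas2, Oas3, Oasl1 and Oasl2), an interferon-gamma set held 12 genes (Irf1, Gbp2, Gbp3, Gbp5, Gbp7, Iigp1, Igtp, Irgm1, Irgm2, Tap1, Psmb8 and Psmb9), and the other 20 were transcription factors, sensors and further effectors. The study asked how lung cells with Lamp1, a lysosomal membrane protein, on their surface differ from cells without it, in healthy and in fibrotic lung. Male C57BL/6J mice (C57BL/6 in the labels) received saline (sham) or bleomycin sulfate (BLM), a DNA-damaging drug used to model pulmonary fibrosis, by oropharyngeal instillation, and lungs were taken 21 days later. The lungs of 2 or 3 mice of a group were pooled and dissociated with collagenase, and cells were sequenced either unsorted or after sorting into a Lamp1-enriched and a Lamp1-depleted fraction with an antibody to surface Lamp1. The age of the mice was not given in the sources used here. Each of the 6 conditions, sham or BLM in 3 fractions, had 1 library.

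Interferons fall into types by their receptor. Type I interferons, the alpha and beta proteins that most cells can make on sensing viral or displaced nucleic acid, act through the receptor pair Ifnar1 and Ifnar2 and the kinases Jak1 and Tyk2, and a complex that includes Irf9 then binds the interferon-stimulated response element (ISRE) in promoters. Interferon-gamma, made mainly by T cells and NK cells, acts through Ifngr1, Ifngr2, Jak1 and Jak2, and its signal reaches promoters at the gamma-activated site (GAS). The target lists overlap, so the division into sets follows which interferon is known to induce a gene most strongly and does not show which interferon was present. In the lung these genes are known for antiviral defence of the epithelium and endothelium, for macrophage activation and for antigen presentation.

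The promoters were searched for both elements. For 34 of the 43 genes a promoter window of 250 bases before to 50 bases after a start site was taken from RefSeq (GRCm38.p6). An ISRE core, GAAANNGAAA on either strand, was in the window of 18 of the 34 genes (52.9%), against 3.99% of the 27025 genes with a window. A GAS, TTCNNNGAA, which reads the same on both strands, was in 13 of the 34 (38.2%), against 9.55% of all genes. Both motifs were in 8 of the 34 (23.5%), against 0.54%. The type I set held the ISRE core in 5 of its 8 genes with a window and the GAS in 2, and the interferon-gamma set held them in 7 and 6 of its 11, with both in 4. The 150 bases before the start site are printed 5′ to 3′ on the strand of the gene, with motif matches in capitals, for 4 type I genes and 4 interferon-gamma genes whose results are described here. Isg15 held 3 overlapping ISRE cores, Irf1 a GAS alone, and the neighbours Igtp and Irgm2 a GAS followed closely by an ISRE. In those windows Igtp and Irgm2 shared a run of 38 identical bases, and 103 of the 120 bases that overlay at that offset were the same (85.8%). A match of letters is a description of the sequence and does not show that a factor was bound. The positions are chr19:34640739-34640888 (+) for Ifit1, chr4:156200819-156200968 (-) for Isg15, chr5:120907526-120907675 (-) for Oas1a, chr5:120777660-120777809 (-) for Oas3, chr11:53769864-53770013 (+) for Irf1, chr3:142530186-142530335 (+) for Gbp7, chr11:58199406-58199555 (+) for Igtp and chr11:58214827-58214976 (+) for Irgm2.
Ifit1: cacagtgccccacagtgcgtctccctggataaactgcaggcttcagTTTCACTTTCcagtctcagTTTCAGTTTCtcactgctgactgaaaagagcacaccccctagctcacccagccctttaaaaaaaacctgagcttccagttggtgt
Isg15: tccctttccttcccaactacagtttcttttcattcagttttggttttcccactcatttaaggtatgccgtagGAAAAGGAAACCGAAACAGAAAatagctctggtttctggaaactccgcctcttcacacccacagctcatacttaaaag
Oas1a: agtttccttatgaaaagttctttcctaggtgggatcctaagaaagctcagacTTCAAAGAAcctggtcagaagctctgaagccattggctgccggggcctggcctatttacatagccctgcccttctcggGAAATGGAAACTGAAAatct
Oas3: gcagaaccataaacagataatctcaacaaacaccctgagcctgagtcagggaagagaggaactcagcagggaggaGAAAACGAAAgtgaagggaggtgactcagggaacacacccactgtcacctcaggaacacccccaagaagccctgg
Irf1: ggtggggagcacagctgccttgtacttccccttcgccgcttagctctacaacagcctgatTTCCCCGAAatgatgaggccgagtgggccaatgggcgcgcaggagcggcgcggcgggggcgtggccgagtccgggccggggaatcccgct
Gbp7: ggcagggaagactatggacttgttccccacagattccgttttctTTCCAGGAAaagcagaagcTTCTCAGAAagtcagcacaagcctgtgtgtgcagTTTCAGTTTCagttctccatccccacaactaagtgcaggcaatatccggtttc
Igtp: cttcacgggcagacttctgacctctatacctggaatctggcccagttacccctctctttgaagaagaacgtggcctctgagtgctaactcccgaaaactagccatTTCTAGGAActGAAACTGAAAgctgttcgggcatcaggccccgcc
Irgm2: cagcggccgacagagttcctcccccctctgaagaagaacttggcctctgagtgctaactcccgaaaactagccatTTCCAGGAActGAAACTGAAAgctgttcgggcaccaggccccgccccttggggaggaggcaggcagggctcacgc

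The libraries held 30236120 to 52918696 counted reads. Gm26917, a non-coding RNA gene, took 38.4% of the reads of the BLM Lamp1-depleted library and 0.884% to 7.10% of each other library, so levels are given in CPM, reads over the library total after TMM scaling, which limits the effect of such genes on the rest. Every one of the 43 genes was counted in every library, with 18 reads (Ifi44, BLM Lamp1-depleted) to 16421 reads (Parp14, BLM Lamp1-enriched). With 1 library per condition a BLM over sham ratio, or a sorting ratio within a treatment, has no replicate check and no p-value. Such ratios are given as log2 ratios with the 95% Clopper-Pearson interval in parentheses, which covers counting error only, and a gene was counted as higher or lower past a log2 ratio of 1, a 2-fold difference, when the higher library held at least 10 reads. Sorting was also tested over both treatments, which entered as a block, in the 4 sorted libraries by edgeR's quasi-likelihood test over all 20593 genes tested. That fit leaves 1 residual degree of freedom, which holds how far the sorting effect differed between the treatments. Its prior degrees of freedom were infinite, so the spread came from all genes together and each gene's own spread had no weight. Small p-values here therefore do not measure the spread between animals. An exon of 17 of the 43 genes overlaps another gene, on the same strand for Gbp7, Igtp, Irgm2, Irf9, Parp14 and Rtp4, and reads there are uncertain. In these bulk libraries, fewer cells of a type and less RNA per cell cannot be told apart.

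Levels per kilobase of exon place the genes in order within a library. Ifitm3, a membrane protein that blocks virus entry, had the highest level of the 43 in every library, from 70.0 CPM per kb (BLM Lamp1-depleted) to 398 CPM per kb (sham Lamp1-enriched). Second came Irf1 in the sham unsorted library (41.5 CPM per kb), Trim25 in the BLM unsorted and both Lamp1-depleted libraries (53.8 to 56.4) and Gbp2 in both Lamp1-enriched libraries (45.5 and 64.7). The lowest was Oas3 in the sham unsorted library (0.498 CPM per kb), Ifi44 in both Lamp1-depleted libraries (0.139 and 0.523) and Mx1 in the other 3 (0.178 to 1.35).

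**Figure D1:**
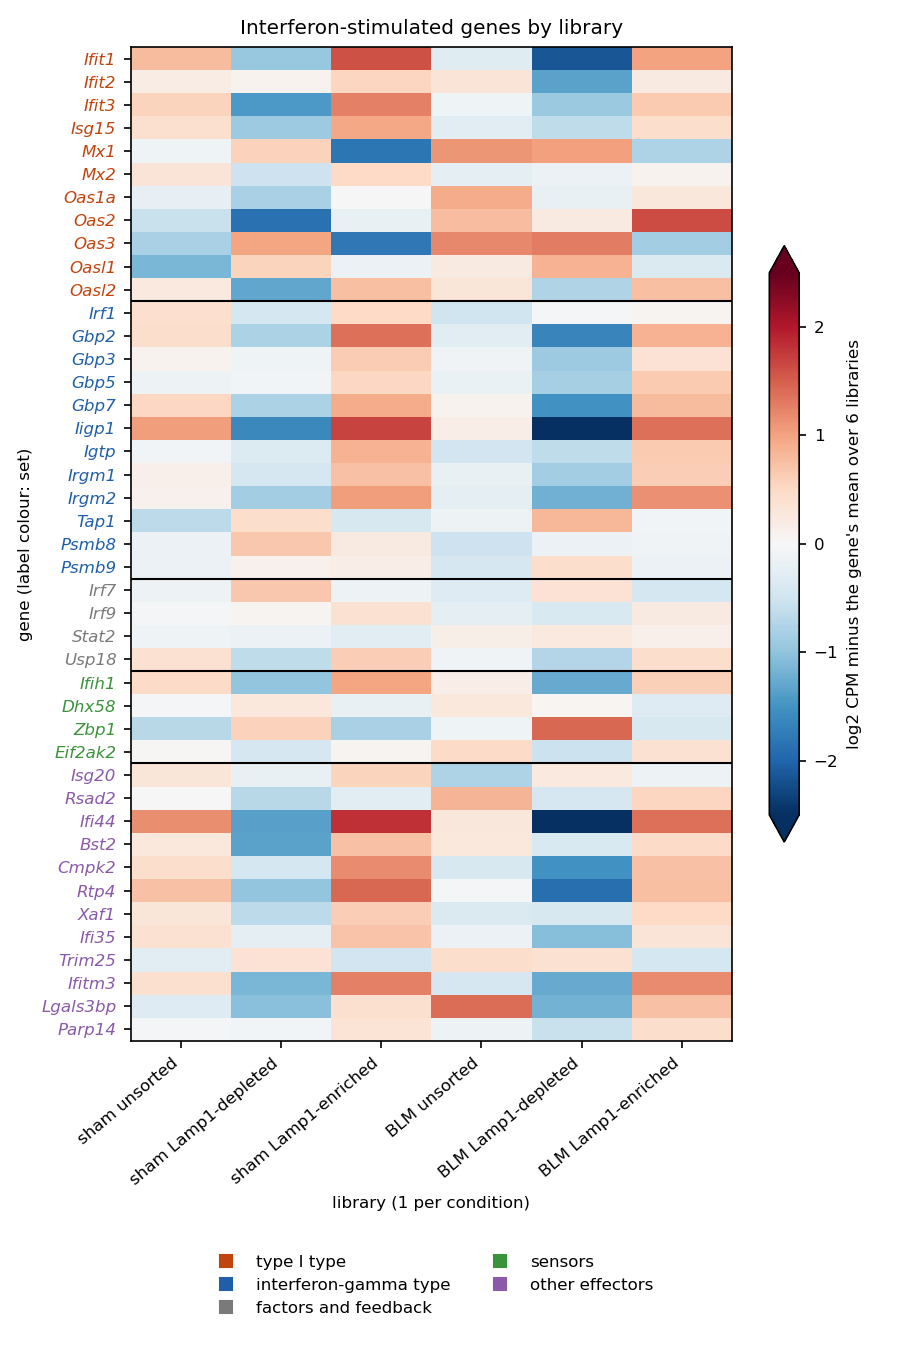
Heat map of the 43 genes (rows, label colour by set) in the 6 libraries (columns, 1 per condition), as log2 CPM minus the mean of that gene over the libraries. Most genes are high in both Lamp1-enriched libraries and low in both Lamp1-depleted libraries, while Mx1, Oas3, Zbp1 and Tap1 show the opposite.

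Between BLM and sham the list held genes on both sides. In unsorted cells 6 of the 43 genes were higher in BLM, namely Oas1a, Oas2, Oas3, Oasl1, Mx1 and Lgals3bp, against 13.9% of all genes, and 2 were lower, Ifit1 and Isg20, against 16.0%. In Lamp1-depleted cells only Oas2 was higher (background 13.7%) and 5 were lower, Ifit1, Ifit2, Ifi44, Cmpk2 and Iigp1 (background 22.3%). In Lamp1-enriched cells Oas2 and Mx1 were higher (background 10.2%) and none was lower (background 7.86%). The median log2 ratio of the 43 genes was -0.29 in unsorted, -0.11 in Lamp1-depleted and -0.19 in Lamp1-enriched cells, beside -0.07, -0.20 and -0.00 over all genes. The Lamp1-depleted median became 0.04 with DESeq2 size factors. That scaling left 3 genes lower there, without Cmpk2 and Iigp1 (background 18.7%), and 2 higher, with Bst2 added (background 16.4%). With library totals in place of TMM scaling, 18 genes were lower in Lamp1-depleted cells (background 46.8%) and 8 in unsorted cells (background 22.3%), and Mx1 and Oas1a were no longer past 2-fold in unsorted cells (0.96 and 0.87).

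After sorting, more of the list was higher than lower in the Lamp1-enriched cells. By edgeR's quasi-likelihood test at an adjusted p under 0.05, 24 of the 43 genes were higher in the Lamp1-enriched libraries, against 21.5% of all genes, and 6 were lower (Mx1, Oas3, Irf7, Zbp1, Tap1 and Trim25), against 19.2%. In sham mice 21 genes were higher (background 27.5%) and 3 lower (background 25.2%) by at least 2-fold, and in BLM mice 22 were higher (background 34.3%) and 4 lower (background 22.6%). Of these, 18 genes were higher and 3, Oas3, Mx1 and Zbp1, were lower in both treatments, beside 22.1% and 15.4% of all genes. The median sorting ratio of the 43 genes was 0.95 in sham and 1.07 in BLM, against -0.01 and 0.29 over all genes. With library totals the test called 14 higher, against 13.9% of all genes, and 1 lower, Oas3, against 7.59%, and made no call for Isg15, Ifit2, Gbp3, Gbp5, Igtp, Irgm1, Usp18, Bst2, Xaf1, Ifi35, Mx1, Irf7, Zbp1, Tap1 and Trim25.

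The cell makeup of the fractions moved with sorting. All 8 endothelial markers were higher in the Lamp1-enriched libraries by edgeR's quasi-likelihood test at an adjusted p under 0.05, with a summed level of 10125 CPM (sham) and 10896 CPM (BLM) against 1300 and 980 CPM in the Lamp1-depleted libraries. All 8 T cell markers, all 6 B cell markers and all 6 NK cell markers were lower there, with T cell sums of 32.99 and 23.1 CPM against 699 and 491 CPM, B cell sums of 162 and 63.4 CPM against 3063 and 1309 CPM, and NK cell sums of 14.2 and 4.16 CPM against 172 and 58.1 CPM. By the same test all 5 platelet markers were higher in the Lamp1-enriched libraries, with sums of 907 and 129 CPM against 36.5 and 12.02 CPM, and so were all 5 smooth muscle and pericyte markers (228 and 135 CPM against 32.8 and 31.0 CPM), 5 of 7 epithelial markers (830 and 258 CPM against 135 and 122 CPM) and 4 of 6 fibroblast markers (212 and 319 CPM against 70.7 and 66.3 CPM). All 6 neutrophil markers were lower there by the test over both treatments, with sums of 27.5 and 59.0 CPM against 47.9 and 327 CPM. In sham their median sorting ratio was -0.43, with 2 lower by 2-fold and 1 above 0. In BLM it was -2.22, with all 6 lower by 2-fold. Neutrophil markers also moved with treatment in the Lamp1-depleted cells, where all 6 were higher in BLM by 2-fold, with a median log2 ratio of 2.76. Other lists moved there too. By 2-fold, 3 of 6 B cell, 5 of 6 NK cell and 5 of 6 fibroblast markers were lower in BLM, beside 22.3% of all genes. The remaining fibroblast marker was higher. Of 7 epithelial markers 4 were higher, beside 13.7% of all genes, and 1 was lower. No marker of these 9 lists was at 0 reads in any library. By the sorting test, 5 of 8 monocyte and interstitial macrophage markers were lower in the Lamp1-enriched libraries and 0 higher. Of 6 conventional dendritic cell markers 2 were higher and 3 lower. Of 4 plasmacytoid dendritic cell markers tested 1 was higher and 3 lower. Among 6 alveolar macrophage markers the test made no call. The part of cell makeup in the sorting ratios, and in the BLM over sham ratios of Lamp1-depleted cells, was not tested.

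The Oas and Oasl genes encode oligoadenylate synthetases that detect double-stranded RNA and their relatives. In unsorted cells they were 4 of the 6 list genes higher in BLM by 2-fold, beside 13.9% of all genes. In each sorted fraction Oas2 was the only one of the 5 past 2-fold. Oas1a, Oas2 and Oas3 lie together on chromosome 5 between 120730333 and 120907521 (GRCm38), and Oasl1 and Oasl2 between 114896936 and 114937915. Oas2 was at 12.5, 5.07 and 16.3 CPM in unsorted, Lamp1-depleted and Lamp1-enriched sham cells and at 31.4, 21.5 and 57.2 CPM in the matching BLM cells. Each BLM library was above its sham partner, and the BLM Lamp1-enriched library was the highest of the 6. The log2 ratios were 1.33 (1.19 to 1.47), 2.08 (1.86 to 2.32) and 1.81 (1.70 to 1.93), which made Oas2 the only one of the 43 genes past 2-fold in all 3 fractions, as 2.39% of all genes were. It stayed past 2-fold there under every scaling tried. Oas2 was also higher after sorting for Lamp1, with ratios of 1.68 (1.47 to 1.90) in sham and 1.41 (1.27 to 1.55) in BLM (edgeR log2 fold change 1.45, adjusted p = 2.47e-04).

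Oas3, next to Oas2 on the chromosome, sorted the other way. It was at 3.52, 12.2 and 1.80 CPM in unsorted, Lamp1-depleted and Lamp1-enriched sham cells and at 14.3, 15.1 and 3.38 CPM in BLM cells. The Lamp1-enriched libraries were the lowest of their treatment, and in BLM mice the unsorted level lay close to the Lamp1-depleted level. Sorting ratios were -2.75 (-3.11 to -2.43) in sham and -2.16 (-2.43 to -1.90) in BLM, and the edgeR log2 fold change was -2.55 (adjusted p = 7.37e-08). BLM over sham, Oas3 had the highest ratio of the 43 genes in unsorted cells, 2.02 (1.77 to 2.28) or 4.05-fold, but 0.30 (0.10 to 0.50) in Lamp1-depleted and 0.90 (0.52 to 1.30) in Lamp1-enriched cells.

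Oas1a was at 5.48, 3.64 and 6.30 CPM in sham and 12.1, 5.59 and 7.71 CPM in BLM cells, in the same order of fractions, with the BLM unsorted library the highest. Its BLM over sham ratio was 1.14 (0.92 to 1.36) in unsorted cells and 0.62 and 0.29 in the sorted fractions, and the sorting test did not call it (edgeR adjusted p = 0.361). Oas1a has a close copy nearby, Oas1g, so reads could be split between them and both values are uncertain. Oasl1, a relative known to restrain translation of Irf7, was at 1.69, 5.48 and 3.35 CPM in sham and 4.36, 6.82 and 2.92 CPM in BLM cells. It was higher in BLM only in unsorted cells (1.36 (0.98 to 1.77)), and its edgeR sorting fold change of -1.06 missed the threshold (adjusted p = 0.0622). After thinning to the smallest library the test called it lower (-1.20, edgeR adjusted p = 0.0316). Oasl2, the most abundant of the family in CPM, was at 49.3, 17.0 and 69.6 CPM in sham and 51.2, 24.5 and 70.3 CPM in BLM cells. It barely differed by treatment in unsorted and Lamp1-enriched cells (0.05 and 0.02) and was higher in the Lamp1-enriched fraction by 2.03 in sham and 1.52 in BLM (edgeR adjusted p = 1.05e-05). The median BLM over sham ratio of the 5 genes was 1.33 in unsorted, 0.53 in Lamp1-depleted and 0.29 in Lamp1-enriched cells, and the Lamp1-depleted median turned to -0.19 with library totals.

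The Ifit genes, whose proteins bind viral RNA, lie side by side on chromosome 19 between 34550694 and 34650009 and are known as strong type I targets, and none of them was higher in BLM by 2-fold. Ifit1 was at 20.1, 6.03 and 35.3 CPM in unsorted, Lamp1-depleted and Lamp1-enriched sham cells and at 9.38, 2.65 and 23.4 CPM in BLM cells. Every BLM library was below its sham partner, with ratios of -1.10 (-1.27 to -0.92), -1.18 (-1.63 to -0.77) and -0.59 (-0.70 to -0.49). The Lamp1-enriched library was the highest of each treatment, with sorting ratios of 2.55 (2.36 to 2.74) in sham and 3.14 (2.76 to 3.55) in BLM (edgeR log2 fold change 2.74, adjusted p = 6.38e-11). Ifit3 was at 19.3, 4.87 and 31.5 CPM in sham and 12.2, 6.91 and 20.8 CPM in BLM cells. It was lower in BLM in unsorted and Lamp1-enriched cells (-0.66 and -0.60), above sham in Lamp1-depleted cells (0.50 (0.19 to 0.81), below 0 with library totals), and had an edgeR sorting fold change of 2.05 on the log2 scale (adjusted p = 1.20e-06). Ifit3 has a close copy, Ifit3b, and reads may be split between them. Ifit2 was at 16.4, 15.4 and 21.1 CPM in sham and 18.1, 5.73 and 17.0 CPM in BLM cells, flat but for the low BLM Lamp1-depleted library. Its sorting call (edgeR log2 fold change 0.91, adjusted p = 0.0438) was repeated by none of the 5 alternative fits.

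Set against each other within a library, where scaling cancels, the summed Oas and Oasl level stood higher relative to the summed Ifit level in BLM than in sham. The summed level of the 5 Oas and Oasl genes over that of the 3 Ifit genes, both in CPM per kb, was 0.640 in sham and 1.66 in BLM unsorted cells. In Lamp1-depleted cells it was 1.07 in sham and 2.56 in BLM, and in Lamp1-enriched cells 0.530 in sham and 1.18 in BLM. The ratio was higher in BLM in each of the 3 fractions. Such a sum can rest largely on 1 gene. In Lamp1-enriched cells the Oas and Oasl sum was 19.5 in sham and 29.6 in BLM. Oas2 was at 3.66 and 12.9 there, Oas1a at 3.34 and 4.09, and Oas3 at 0.255 and 0.478. Oasl2 was at 10.9 and 11.0, and Oasl1 at 1.28 and 1.12. The Ifit sum was 36.7 in sham and 25.1 in BLM.

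**Figure D2:**
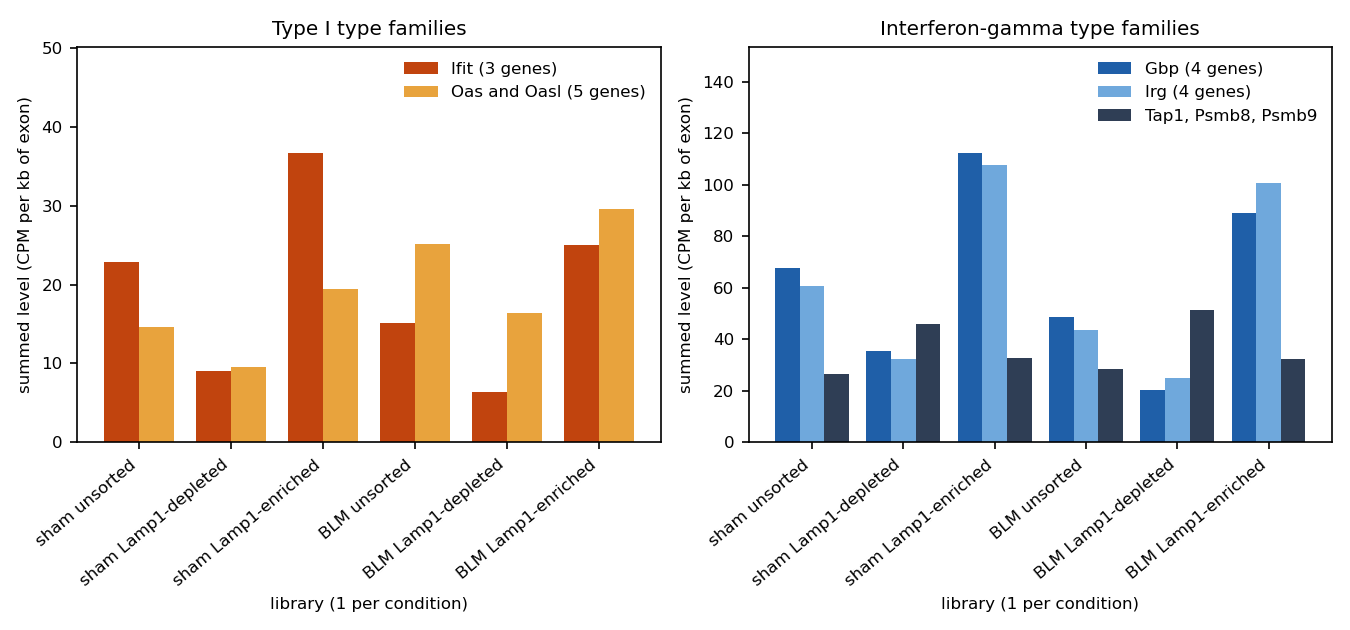
Summed level (CPM per kb of exon) of the type I families (left) and of the interferon-gamma families (right) in each of the 6 libraries, with each bar a single library and no error. The Oas and Oasl bars pass the Ifit bars in all 3 BLM libraries and, slightly, in the sham Lamp1-depleted library, and the Tap1, Psmb8 and Psmb9 bars are above the Gbp and Irg bars in both Lamp1-depleted libraries alone.

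The remaining type I genes were Isg15, Mx1 and Mx2. Isg15, a ubiquitin-like protein that is attached to other proteins, was at 9.48, 3.82 and 14.1 CPM in sham and 6.03, 4.64 and 9.72 CPM in BLM cells, in the same order of fractions. It was high in both Lamp1-enriched libraries and lower in BLM than in sham there (-0.54 (-0.71 to -0.37)), with an edgeR sorting fold change of 1.39 on the log2 scale (adjusted p = 0.00482). Mx1, a gene of the dynamin-like GTPase family, was at 2.18, 3.51 and 0.674 CPM in sham and 5.10, 4.78 and 1.38 CPM in BLM cells. Its lowest levels were in the Lamp1-enriched libraries, which held 31 reads in sham and 75 in BLM, and both sorting ratios were below 0 (-2.36 (-2.99 to -1.82) and -1.79 (-2.25 to -1.35), edgeR adjusted p = 7.74e-04). BLM over sham, Mx1 was higher in unsorted (1.22 (0.88 to 1.58)) and in Lamp1-enriched cells (1.02 (0.41 to 1.68)), the latter no longer past 2-fold at 0.94 after thinning all libraries to the smallest total. Mx2, which the annotation marks as a polymorphic pseudogene, was at 7.35, 4.10 and 8.32 CPM in sham and 4.97, 5.30 and 6.22 CPM in BLM cells and was not called by the sorting test (edgeR adjusted p = 0.361).

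**Figure D3:**
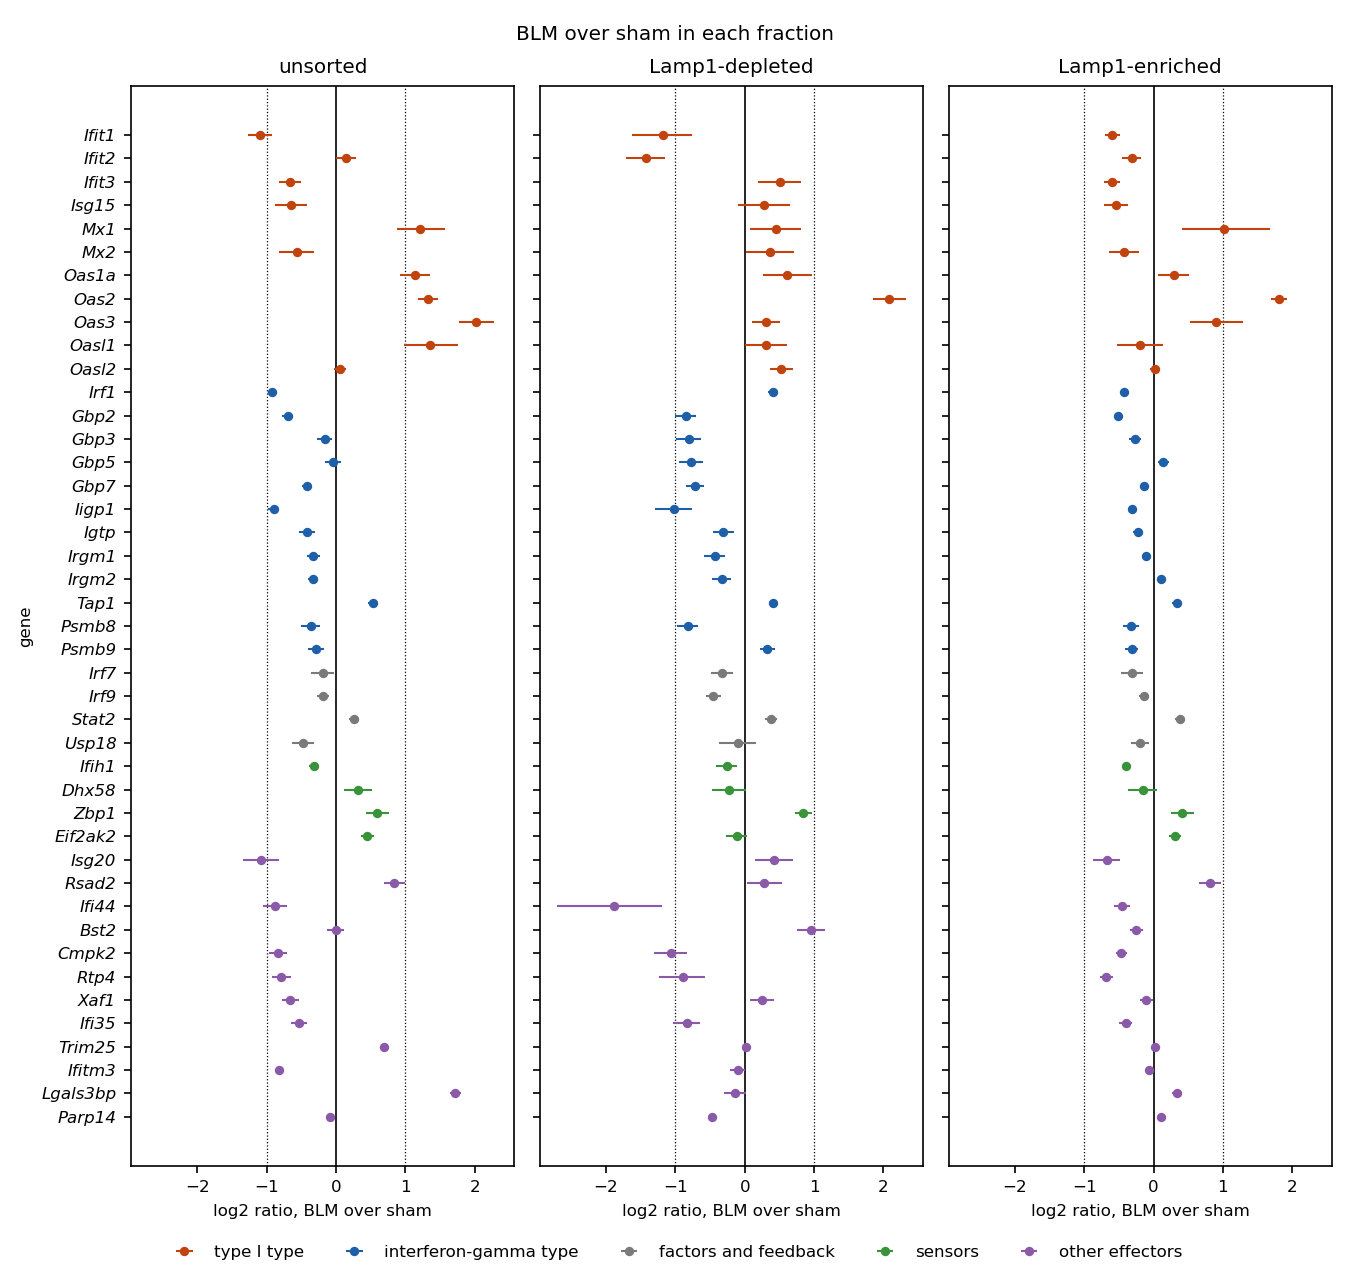
log2 ratio of BLM over sham for each of the 43 genes in unsorted, Lamp1-depleted and Lamp1-enriched cells, where points are single ratios, horizontal lines the 95% counting intervals and dotted lines a 2-fold difference. Oas2 lies beyond the right dotted line in all 3 panels, and most interferon-gamma genes (blue) lie left of 0, with Tap1 to the right in each panel.

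Of the interferon-gamma genes only Iigp1, in Lamp1-depleted cells, passed 2-fold between BLM and sham with TMM scaling. It fell short of 2-fold there with DESeq2 size factors (-0.87), after thinning (-0.98) and with scaling over protein-coding genes (-0.97). With library totals Gbp2, Gbp3, Gbp5, Gbp7, Igtp, Irgm1, Irgm2 and Psmb8 were also lower by 2-fold in Lamp1-depleted cells, and Irf1 and Iigp1 in unsorted cells. In unsorted cells 11 of the 12 were below sham, with Tap1 the exception, and the median ratios were -0.35 in unsorted, -0.58 in Lamp1-depleted and -0.24 in Lamp1-enriched cells. The type I medians were 0.14, 0.37 and -0.20, so that the type I median exceeded the interferon-gamma median by 0.49 in unsorted, 0.94 in Lamp1-depleted and 0.05 in Lamp1-enriched cells. The sign of the type I median in unsorted and Lamp1-depleted cells turned with library totals (-0.12 and -0.35), whereas a difference between sets hardly depends on scaling. After thinning to the smallest library the Lamp1-enriched difference turned to -0.0056. Over the sorting ratio the difference was -0.03 in sham, which turned to 0.0061 after thinning, and -0.32 in BLM. None of these differences was tested, since the sets are lists and each library stands alone.

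Gbp2, Gbp3, Gbp5 and Gbp7 encode guanylate-binding proteins, GTPases that coat pathogen compartments, and share a stretch of chromosome 3 between 142493978 and 142638008. Gbp2 was at 84.4, 36.1 and 163 CPM in unsorted, Lamp1-depleted and Lamp1-enriched sham cells and at 52.2, 20.02 and 115 CPM in BLM cells. Gbp7 was at 117, 47.3 and 156 CPM in sham and 87.1, 28.7 and 142 CPM in BLM cells. Both were highest in the Lamp1-enriched and lowest in the Lamp1-depleted library of each treatment, and both were below sham in each BLM fraction. The BLM over sham ratios of Gbp2 were -0.69, -0.85 and -0.51 in the 3 fractions. The edgeR sorting fold changes were 2.25 for Gbp2 (adjusted p = 3.15e-09) and 1.91 for Gbp7 (adjusted p = 5.61e-07). Gbp3 was at 30.2, 26.6 and 44.2 CPM in sham and 26.9, 15.2 and 36.7 CPM in BLM cells, and Gbp5 at 27.7, 28.9 and 43.03 and 26.9, 16.9 and 47.5 CPM. In sham mice the sorting ratios of Gbp3 and Gbp5 were 0.73 and 0.58, and in BLM mice 1.27 and 1.49. The edgeR test called both (adjusted p = 0.0257 and 0.0204). All 4 genes had a BLM over sham ratio in Lamp1-depleted cells between -0.85 and -0.72.

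The immunity-related GTPases Iigp1, Igtp, Irgm1 and Irgm2, which help to destroy vacuoles of intracellular pathogens, were all called higher in the Lamp1-enriched libraries. Iigp1 was at 87.2, 13.7 and 135 CPM in sham and 46.9, 6.72 and 109 CPM in BLM cells, in the same order of fractions. The Lamp1-enriched level was 9.86-fold (sham) and 16.1-fold (BLM) the Lamp1-depleted level, and Iigp1 had the lowest adjusted p of the 43 genes (edgeR log2 fold change 3.56, adjusted p = 2.39e-19). It was below sham in all 3 BLM fractions, with ratios of -0.89 (-0.97 to -0.81), -1.02 (-1.30 to -0.76) and -0.31 (-0.36 to -0.26). Irgm2 was at 76.5, 38.8 and 147 CPM in sham and 60.7, 30.8 and 158 CPM in BLM cells, with a BLM Lamp1-enriched library slightly above its sham partner (0.10 (0.06 to 0.15)). Igtp was at 34.4, 28.4 and 65.3 CPM in sham and 25.7, 23.0 and 56.1 CPM in BLM cells, and Irgm1 at 47.1, 31.9 and 70.9 and 37.6, 23.6 and 66.0 CPM. The edgeR sorting fold changes were 2.04 for Irgm2 (adjusted p = 8.72e-08), 1.15 for Igtp (adjusted p = 0.00318) and 1.22 for Irgm1 (adjusted p = 0.00156). Igtp and Irgm2, whose promoters resemble each other, overlap on the same strand of chromosome 11, so reads in the shared part cannot be assigned to either.

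Tap1, which carries peptides to MHC class I molecules, and the immunoproteasome subunits Psmb8 and Psmb9 are neighbours on chromosome 17 between 34181987 and 34201454 and did not follow the GTPases. Tap1 was at 61.3, 131 and 73.4 CPM in unsorted, Lamp1-depleted and Lamp1-enriched sham cells and at 88.8, 173 and 92.6 CPM in BLM cells. The Lamp1-depleted library was the highest of each treatment, with sorting ratios of -0.83 (-0.90 to -0.77) and -0.91 (-0.97 to -0.84), and the edgeR test called it lower in Lamp1-enriched cells (log2 fold change -0.97, adjusted p = 0.0176). That call was also absent when all genes with at least 1 read were tested. Tap1 was the only interferon-gamma gene above sham in all 3 BLM fractions (0.53, 0.41 and 0.33), but below sham in Lamp1-depleted cells with library totals. Psmb8 was at 21.8, 38.4 and 28.2 CPM in sham and 16.9, 21.7 and 22.6 CPM in BLM cells, and Psmb9 at 32.2, 38.4 and 39.97 and 26.4, 48.2 and 32.2 CPM. Neither was called by the sorting test (edgeR adjusted p = 0.530 and 0.425). Psmb9 and Tap1 overlap on opposite strands, and without a stated strand setting their reads cannot be told apart there. The summed CPM per kb of these 3 genes over that of the 4 immunity-related GTPases was 1.41 and 2.06 in the sham and BLM Lamp1-depleted libraries, against 0.304 and 0.322 in the Lamp1-enriched libraries.

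Irf1, a transcription factor whose printed promoter carries a GAS alone, was at 165, 90.4 and 174 CPM in sham and 86.8, 120.0 and 130.0 CPM in BLM cells, in the same order of fractions. It was lower in BLM in unsorted (-0.93 (-0.98 to -0.87)) and Lamp1-enriched cells (-0.42 (-0.47 to -0.38)) and above sham in Lamp1-depleted cells (0.41 (0.34 to 0.48)), where it was below sham with library totals. Its sorting ratio was 0.95 in sham and 0.12 in BLM, and the edgeR test did not call it (adjusted p = 0.342).

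**Figure D4:**
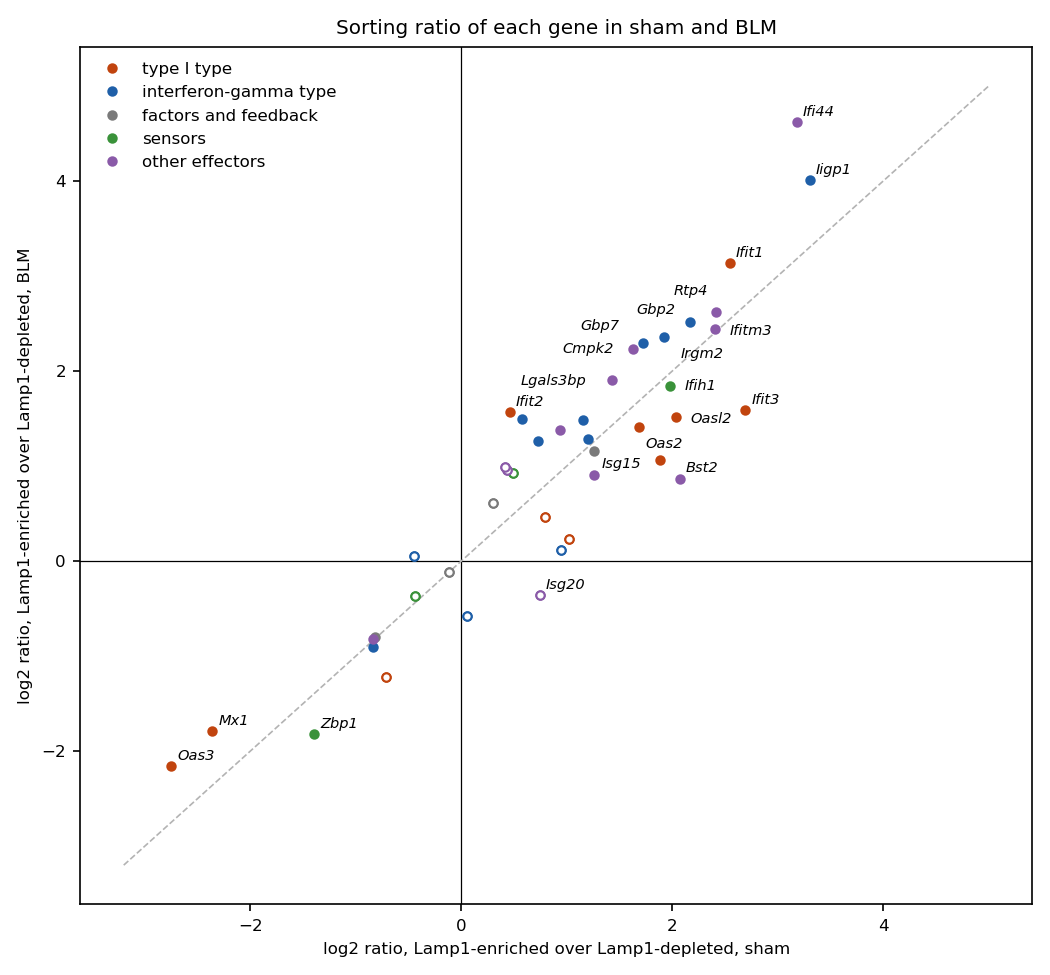
log2 ratio of Lamp1-enriched over Lamp1-depleted cells in sham (x axis) and in BLM mice (y axis) for each of the 43 genes, coloured by set, with a dashed line of equal ratios. Filled points passed edgeR's test at an adjusted p under 0.05 and open points did not. Most genes lie in the upper right quadrant, and Oas3, Mx1 and Zbp1 lie farthest to the lower left.

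Of the factors that carry the type I signal, Stat2 was at 62.9, 61.2 and 56.6 CPM in sham and 75.4, 79.7 and 73.8 CPM in BLM cells, in the same order of fractions, and Irf9 at 55.0, 60.1 and 74.1 and 48.1, 43.9 and 67.1 CPM. Neither passed 2-fold in any comparison with TMM scaling, and neither was called by the sorting test (edgeR adjusted p = 0.659 and 0.412). Irf7, a factor that drives interferon-alpha genes, was at 14.7, 25.9 and 14.7 CPM in sham and 12.9, 20.7 and 11.9 CPM in BLM cells, highest in the Lamp1-depleted library of each treatment. Its sorting call (edgeR log2 fold change -0.90, adjusted p = 0.0328) was absent in 3 of the 5 alternative fits. Usp18, which removes Isg15 from proteins and dampens the type I receptor, was at 17.7, 8.73 and 20.9 CPM in sham and 12.8, 8.14 and 18.2 CPM in BLM cells and was called higher in Lamp1-enriched cells (edgeR log2 fold change 1.12, adjusted p = 0.0107).

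Among the sensors, Ifih1 (MDA5), which detects long double-stranded RNA, was at 75.5, 27.1 and 107 CPM in sham and 60.8, 22.6 and 81.2 CPM in BLM cells, in the same order of fractions. It was high in both Lamp1-enriched libraries (edgeR log2 fold change 1.82, adjusted p = 1.46e-06). Zbp1, a sensor of Z-form nucleic acid that can trigger cell death, was at 11.3, 27.7 and 10.5 CPM in sham and 17.1, 49.8 and 14.0 CPM in BLM cells. The BLM Lamp1-depleted library was the highest with TMM scaling. Its sorting ratios were -1.39 (-1.55 to -1.24) in sham and -1.82 (-1.96 to -1.69) in BLM (edgeR adjusted p = 1.20e-05). Each BLM library was above its sham partner, with ratios of 0.59, 0.85 and 0.41. With library totals every ratio in Lamp1-depleted cells moved by -0.72, which takes up most of the 0.85 of Zbp1. Eif2ak2 (PKR), a kinase that halts translation on binding double-stranded RNA, was at 37.6, 27.2 and 38.4 CPM in sham and 51.4, 25.1 and 47.7 CPM in BLM cells. Dhx58 (LGP2), a regulator of Ifih1, was at 8.63, 10.8 and 7.93 CPM in sham and 10.7, 9.23 and 7.14 CPM in BLM cells. Neither Eif2ak2 nor Dhx58 was called by sorting (edgeR adjusted p = 0.144 and 0.343), and neither passed 2-fold in any ratio with TMM scaling. With library totals Eif2ak2 was higher in Lamp1-enriched BLM cells (1.48).

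Of the 12 other effectors, Ifi44 had the highest sorting ratio. It was at 18.4, 3.20 and 29.1 CPM in unsorted, Lamp1-depleted and Lamp1-enriched sham cells and at 9.96, 0.852 and 21.3 CPM in BLM cells. Both Lamp1-depleted libraries were the lowest, and the BLM one held only 18 reads. Sorting ratios were 3.18 (2.94 to 3.44) in sham and 4.62 (3.98 to 5.40) in BLM (edgeR log2 fold change 3.73, adjusted p = 4.04e-16), and BLM over sham Ifi44 was at -1.89 (-2.70 to -1.20) in Lamp1-depleted cells. Ifitm3, the most abundant per kilobase, was at 149, 51.0 and 269.8 CPM in sham and 84.4, 47.5 and 258 CPM in BLM cells. The Lamp1-enriched level barely differed between treatments (-0.06), while the BLM unsorted level was lower (-0.82 (-0.88 to -0.76)), and the edgeR sorting fold change was 2.33 (adjusted p = 5.38e-09). Rtp4, a chaperone of membrane receptors, was at 28.8, 8.73 and 46.5 CPM in sham and 16.7, 4.69 and 28.9 CPM in BLM cells, lower in BLM in all 3 fractions (-0.79, -0.90 and -0.68) and called in sorting (edgeR log2 fold change 2.42, adjusted p = 1.08e-09).

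Cmpk2 and Rsad2, a nucleotide kinase and the antiviral enzyme viperin, are head-to-head neighbours on chromosome 12 that lay on opposite sides of sham. Cmpk2 was at 32.9, 18.0 and 55.5 CPM in sham and 18.5, 8.57 and 40.3 CPM in BLM cells, in the same order of fractions, below sham in each fraction. Rsad2 was at 13.0, 7.96 and 10.7 CPM in sham and 23.3, 9.70 and 18.8 CPM in BLM cells, above sham in each fraction. The BLM over sham ratios were -0.83 (-0.96 to -0.70), -1.07 (-1.31 to -0.83) and -0.46 (-0.55 to -0.38) for Cmpk2, and 0.84 (0.70 to 0.99), 0.28 (0.03 to 0.54) and 0.81 (0.65 to 0.97) for Rsad2, whose Lamp1-depleted ratio falls below 0 with library totals. Cmpk2 was called in sorting (edgeR log2 fold change 1.83, adjusted p = 2.18e-06) and Rsad2 was not (log2 fold change 0.60, adjusted p = 0.219).

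Lgals3bp, a secreted glycoprotein that binds galectin-3, was at 37.6, 22.8 and 61.4 CPM in sham and 124, 20.7 and 77.4 CPM in BLM cells, in the same order of fractions. The BLM unsorted library was the highest of the 6, above both BLM sorted fractions, and its ratio to sham was 1.72 (1.64 to 1.80), against -0.14 and 0.33 in the sorted fractions. As a sum, the alveolar macrophage markers were also highest in the BLM unsorted library. Of the 6 tested, 4 were higher in BLM by 2-fold in unsorted cells and 1 was lower (log2 ratio -1.77). The 6 of 7 that were found summed to 417 CPM in sham and 2137 CPM in BLM unsorted cells, and to between 108 and 239 CPM in the 4 sorted libraries, with none at 0 reads. The 8 markers of monocytes and interstitial macrophages summed to 158 CPM in sham and 919 CPM in BLM unsorted cells, and to between 89.4 and 426 CPM in the sorted libraries, with none at 0 reads. Of those 8 markers, 7 were higher in BLM by 2-fold in unsorted cells and 1 was below sham (log2 ratio -0.86). The part of these cells in the ratios of Lgals3bp and of the Oas genes in unsorted cells was not tested. Lgals3bp was called in sorting (edgeR log2 fold change 1.57, adjusted p = 3.91e-05).

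Bst2 (tetherin), which holds budding virus at the cell surface, was at 27.7, 9.08 and 38.2 CPM in sham and 27.6, 17.6 and 32.2 CPM in BLM cells. Its BLM over sham ratio was -0.01 in unsorted and 0.95 (0.75 to 1.16) in Lamp1-depleted cells, the latter past 2-fold with DESeq2 size factors (1.11). Library totals moved the Lamp1-depleted ratio the other way, by -0.72. Xaf1, a gene linked to apoptosis, was at 34.0, 17.5 and 42.1 CPM in sham and 21.5, 20.9 and 39.2 CPM in BLM cells, and Ifi35 at 35.0, 22.9 and 44.0 and 24.3, 12.8 and 33.4 CPM. All 3 were called higher in Lamp1-enriched cells, with edgeR log2 fold changes of 1.37, 0.99 and 1.06 (adjusted p = 7.02e-04, 0.0134 and 0.00798). Isg20, an RNA exonuclease, was at 8.88, 6.34 and 10.6 CPM in sham and 4.21, 8.52 and 6.64 CPM in BLM cells, lower in BLM unsorted cells (-1.08 (-1.34 to -0.82)) and not called in sorting (edgeR adjusted p = 0.877). Parp14, an ADP-ribosyltransferase, was at 215, 210.0 and 279.9 CPM in sham and 202, 151 and 301 CPM in BLM cells and was not called in sorting either (edgeR adjusted p = 0.185). Trim25, a ubiquitin ligase of the RNA sensing pathway, was at 202, 309.8 and 173 CPM in sham and 325, 312 and 176 CPM in BLM cells. Trim25 was lowest in the Lamp1-enriched library of each treatment (edgeR log2 fold change -0.93, adjusted p = 0.0347), a call that was also absent when all genes with at least 1 read were tested.

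The sorting ratio itself was set side by side in both treatments. The BLM minus sham difference of the sorting ratio had a median of 0.09 over the 43 genes and 0.21 over all genes. It was above 0 in 4 of 11 type I genes (median -0.33) and in 9 of 12 interferon-gamma genes (median 0.39). The 5 genes with a difference over 1 in size were Ifi44 (1.44) and Ifit2 (1.11) on the positive side and Isg20, Ifit3 and Bst2 (-1.10, -1.10 and -1.20) on the negative side. With library totals every difference rose, to a median of 0.41 in type I genes, with 8 of 11 above 0, and 1.12 in interferon-gamma genes, with 11 of 12 above 0, and 20 genes passed 1, all on the positive side and without Isg20, Ifit3 and Bst2. The type I median stayed below the interferon-gamma median, by -0.72 with TMM scaling and with library totals. Every difference rests on the BLM Lamp1-depleted library, and none was tested.

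A level in unsorted cells can lie between or outside the levels of the sorted fractions. In sham mice the unsorted level lay between both sorted levels for 34 of the 43 genes, above both for 2 (Stat2 and Rsad2) and below both for 7, while 52.2%, 25.7% and 22.1% of all genes did so. In BLM mice it lay between for 29, above for 8 and below for 6 (all genes 55.6%, 26.4% and 18.0%). The 8 above were Ifit2, Mx1, Oas1a, Rsad2, Dhx58, Trim25, Eif2ak2 and Lgals3bp. Tap1, Psmb8 and Psmb9 lay below both fractions in both treatments, and no interferon-gamma gene lay above both in either.

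The rest of the pathway was read from a list of known genes. Of 19 interferon genes only Ifng and Ifnk reached 10 reads in any library. Ifng had 25, 247 and 15 reads in unsorted, Lamp1-depleted and Lamp1-enriched sham cells and 10, 48 and 11 reads in BLM cells, high in the Lamp1-depleted libraries as the T cell markers were (edgeR log2 fold change -3.87, adjusted p = 1.60e-07). Ifnk had 13 to 66 reads and was not called (edgeR adjusted p = 0.427). Ifnb1 had 2 reads in the BLM Lamp1-depleted library and 0 in the other 5, and no interferon-alpha gene had more than 2 reads in a library. A library with 0 reads of a gene allows up to 3 reads. Of the 9 receptor and kinase genes, 1 was called in sorting, Tyk2, lower in Lamp1-enriched cells (edgeR log2 fold change -1.31, adjusted p = 7.71e-04), and between BLM and sham Ifnlr1 and Tyk2 were higher by 2-fold in Lamp1-depleted cells (2.03 and 1.03), with none past 2-fold in unsorted or Lamp1-enriched cells. Ifnar1, Ifnar2, Ifngr1 and Ifngr2 were not called in sorting (edgeR adjusted p = 0.199, 0.0800, 0.982 and 0.462). Of 9 further factors and feedback genes, Socs3 was called higher and Ciita, Socs1, Irf8 and Nlrc5 lower. Of 10 sensors and adaptors, Tlr3 and Mavs were called higher and Tmem173, Tlr7 and Tlr9 lower. Of 39 other induced genes tested, 9 were called higher and 8 lower. Their median sorting fold change was 0.02 on the log2 scale, against 0.93 for the 43 genes and 0.03 for all genes.

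Of the other induced genes, Oas1g, Ifit3b, Cxcl9 and B2m are given by value. Oas1g, the neighbour of Oas1a, had 23, 15 and 21 reads in unsorted, Lamp1-depleted and Lamp1-enriched sham cells and 175, 22 and 66 reads in BLM cells, high in the BLM unsorted library (log2 ratio 3.20 (2.60 to 3.92)). Ifit3b had 335, 80 and 547 reads in sham and 128, 39 and 290 reads in BLM cells, and its edgeR sorting fold change was 2.07 (adjusted p = 1.66e-04), beside 2.05 for Ifit3. Cxcl9, a chemokine induced by interferon-gamma, had 45, 7 and 8 reads in sham and 109, 14 and 87 reads in BLM cells, higher in BLM by 1.56 (1.06 to 2.11) in unsorted and 3.13 (2.16 to 4.46) in Lamp1-enriched cells. B2m, the light chain of MHC class I, was at 8335 reads in the BLM Lamp1-depleted library and 53922 to 128525 reads in the other 5, a BLM over sham ratio of -2.22 (-2.26 to -2.19) in Lamp1-depleted cells, where Tap1 was at 0.41.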

How the data were processed

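RNA of lung cells was sequenced as polyA libraries, 1 for each of 6 conditions. Reads per gene are raw counts that the authors deposited for all samples in a single table. The submitters' processing notes name Trimmomatic 0.36, STAR 2.5.2b, featureCounts of Subread 1.5.2, DESeq2 and the build GRCm38. The annotation release and the strand setting of the counting are not given in the sources used here. Groups were taken from the sample titles.

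The 43 genes, their sets, the pathway list and the cell type markers were chosen with earlier results of these data known, and every one of the 43 is named. Gene positions and exon lengths came from GENCODE M21 (49056 of 49315 genes matched), and promoter windows from RefSeq. Counts were scaled by TMM (edgeR 4.0.16, R 4.3.3), and CPM used the scaled totals. Ratios used a prior count of 0.5, with intervals from the exact binomial distribution (scipy 1.17.1). A gene entered a comparison when its higher library held 10 reads or more. Sorting was tested by edgeR's quasi-likelihood test on the 4 sorted libraries, blocked by treatment, with Benjamini-Hochberg adjustment over 20593 genes. BLM against sham was not tested with fraction as a block, since the sources used here do not say whether the fractions of a treatment are from separate pools of mice. Nothing in the labels marks libraries as separate cultures or animals. Alternatives were DESeq2 size factors and test (1.42.0), library totals, other prior counts, read minima and thresholds, thinning to the smallest library, all 6 libraries in the fit, and scaling over protein-coding genes or without the BLM Lamp1-depleted library, the last 2 of these chosen after the data were seen. The steps were tested on simulated data with 1 mean share per gene, averaged over the 6 real libraries. Of 200 genes made 4-fold different in the sorting comparison, 198 passed a log2 ratio of 1. The test called 126 of them, with 5 of the unchanged genes among 20607 tested. Apart from those 200 genes the simulated libraries shared 1 makeup and 1 spread, while the real test called 4422 genes higher and 3964 lower. The 5 calls therefore give no rate of false calls for the real libraries. Depth, 30236120 to 52918696 reads, sets the counting intervals.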

Additional observations from a re-analysis of the deposited data

How the results depend on the processing

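Of 172 values recomputed under other settings, 143 stayed within a set tolerance, 26 moved and 3 turned sign. That tolerance let a count go from 22 to 29 genes, as in BLM sorting with library totals. Read minima of 1 and 50 could not change the ratios or their counts, since all 43 genes passed both. Scaling could hardly change a difference between sets. With library totals, the median BLM over sham ratio of the 43 genes was -0.55 in unsorted and -0.83 in Lamp1-depleted cells. There 8 and 18 genes were lower (22.3% and 46.8% of all genes). Under the same scaling the median sorting ratio was 0.77 in sham, with 5 genes lower, and 1.62 in BLM. EdgeR's test then called 14 genes higher (13.9% of all genes) and 1 lower (7.59%). With DESeq2 size factors the median in Lamp1-depleted cells was 0.0367, with 2 genes higher (16.4% of all genes) and 3 lower (18.7%). Library totals moved every log2 ratio by -0.26 in unsorted and -0.72 in Lamp1-depleted cells, and by -0.17 and 0.56 in sham and BLM sorting, and DESeq2 size factors moved those of Lamp1-depleted cells by 0.15 and those of BLM sorting by -0.15. With a log2 threshold of 2, BLM over sham counts were 1 higher and 0 lower in unsorted, 0 lower in Lamp1-depleted and 0 higher in Lamp1-enriched cells, and sorting counts were 9 higher in sham and 9 higher and 1 lower in BLM. Thinned to the smallest library, the type I minus interferon-gamma difference was -0.0056 for BLM over sham in Lamp1-enriched cells and 0.0061 for sorting in sham, and 2 genes were higher in BLM Lamp1-depleted cells. A prior count of 2 left 1 gene higher in BLM Lamp1-enriched cells. Scaling over protein-coding genes without Gm26917 and Gm42418, chosen after the data were seen, gave 2 genes higher in BLM Lamp1-depleted cells, sorting medians of 0.69 in sham and 0.76 in BLM, and 6 and 7 genes lower. Testing all genes with at least 1 read called 3 lower. The cause of these changes was not tested. In all 6 fits, 27 genes kept their call, 14 of them higher, 1 lower and 12 without a call. Where a count in this section has no share of all genes beside it, the share was not computed under that setting. Such a count is not a result about the list. The sorting test has treatment as its block. BLM against sham had no blocked test, since the sources used here do not say whether a treatment's fractions come from separate pools of mice. No library could be left out of the sorting test, which would then keep no residual degree of freedom.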
